A study of Mus musculus with 90 samples.

Results

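Megakaryocytes (MK), the cells that shed platelets, were compared between Runx1 knockout (KO) and wild-type (WT) mice in 9 single-cell RNA libraries that carried platelet transcripts in abundance. The study cultured CD41-positive blood stem cells of mouse bone marrow to ask into what they differentiate with and without RUNX1. KO cells carried the genotype MxCre1+/-,RUNX1f/f and WT cells the genotype MxCre1-/-,RUNX1f/f, so both had loxP sites around Runx1 and only KO cells had the recombinase. Mice of both genotypes received poly(I:C) in 4 injections, cells were sorted 4 weeks after the injections and cultured for 2 days, and those that looked like MK were picked for SMART-Seq, a full-length method for single cells. Mx1-Cre is switched on by interferon in many cell types, so the deletion was not limited to blood cells, and poly(I:C) itself provokes interferon in both genotypes. The labels used here name neither the age nor the sex of the mice.

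The cells were chosen by Pf4, which encodes platelet factor 4: every library labelled MK with 1000 TPM or more in the table without outliers was a member. TPM is a transcript abundance corrected for transcript length and set to one common sum per library. This left 3 KO and 6 WT cells, 9 of the 33 libraries in that table, of 46 in the full table and of 90 labelled in the series, of which 44 were not analysed here. Pf4 stood at 18922.2 TPM in KO 1A, 26884.7 TPM in KO 1B and 13751.7 TPM in KO B1-3, and between 12512.8 and 19618.6 TPM in the WT cells, with a median of 15938.6 TPM. The cells just inside the minimum were thus far above it. Just outside it were 2 KO cells labelled MK, KO 2 at 213.7 TPM and KO B1-4 at 65.8 TPM, and the minimum removed no WT cell. Other defining MK genes, Itga2b and Gp9, were present in all 9 cells, whereas Gp6 and Tubb1, genes of late MK and platelets, were at 1.0 TPM or less in WT cells.

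RUNX1 is a DNA-binding transcription factor that acts with its partner CBFB and, in megakaryocytes, beside GATA1 and FLI1. In people, inherited loss of a RUNX1 copy gives low platelet counts with poor platelet function, and platelets of such patients have been described as short of ALOX12, PRKCQ, PF4 and other products of RUNX1 target genes. A maturing megakaryocyte becomes polyploid, stores proteins in alpha-granules and dense granules, and sets up the receptors and signalling proteins with which platelets later respond to thrombin, ADP, thromboxane and collagen.

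Several features of the libraries bear on all that follows. The labels tie no cell to an animal or culture, each library is 1 cell, and each genotype therefore counts as 1 sample, so no p-value is given and errors are SDs between cells. Depth is unknown, since TPM keeps no record of it; KO libraries held 12428 to 14487 genes above 0 and WT libraries 14089 to 15252. Titles put 2 KO cells (KO 1A and KO 1B) and 5 WT cells in a set without a prefix, and KO B1-3 and WT B1-1 in a set with the prefix B1. Across the genes tested, the 5 WT libraries without a prefix correlated with each other at r = 0.94 to 0.97 on the log2 scale and with WT B1-1 at 0.85 to 0.88. KO libraries correlated with each other at 0.84 to 0.86 and with WT libraries at 0.74 to 0.88. Whether those 5 cells share an animal or a culture is not stated, and counts with them averaged are given below.

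The targeted gene was not lower in KO cells. Runx1 (chr16:92601466-92826074, GRCm38.p6) had 12.6, 31.8 and 47.5 TPM in KO 1A, KO 1B and KO B1-3, against 7.6 to 22.2 TPM in WT cells with a median of 11 TPM. Its mean was 1.15 higher in KO on the log2(TPM + 1) scale, and the ranges overlapped. A value for the whole gene cannot show whether the floxed part is missing, so it does not check the labels. Transcripts of the sex chromosomes split the cells in the same way as the genotype. All 5 KO cells labelled MK had a Y-linked transcript and none had Xist, whereas none of the 6 WT cells had a Y-linked transcript and all 6 had Xist. The same held for most of the other cells, with a Y-linked transcript in 10 of 13 KO and 1 of 9 WT cells that did not look like MK. Genotype and this sex-linked pattern cannot be told apart in these libraries.

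More genes were higher than lower in these KO cells. Among genes past the fold, defined below, this excess turned round when the libraries left out by the authors were included. A gene was tested where the average of the group means reached 5 TPM, which 6684 genes did. It was past the fold where group means of log2(TPM + 1) differed by 1 or more, and separated where, in addition, the ranges of KO and WT values did not overlap. A gene near 0 in either genotype could be tested through the other alone, which fixed its direction. Past the fold were 1292 genes higher (19.3%) and 691 lower (10.3%) in KO cells. Separated were 768 genes higher (11.5%) and 276 lower (4.13%), and these percentages are the background for each gene list below. The median tested gene was 0.23 higher in KO cells. Median-ratio rescaling, which centres the libraries on one another, took this median to -0.04 and the separated genes to 533 higher and 448 lower, so the excess of higher genes was smaller on that scale (54.3% of separated genes, against 73.6%).

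The separated genes depended on which libraries entered. In the full table, which adds libraries that the authors left out as outliers, 7 KO and 9 WT cells met the Pf4 minimum, 603 genes were past the fold higher and 1405 lower, and the median gene differed by -0.30. There only 6 genes were separated higher (Thbs1, Plekho1, Ptgir, Col4a2, Cnn2 and Ly6g6d) and 1 lower (Xist), named here after their values were seen. The median of housekeeping genes was -0.73 there and that of mitochondrially encoded genes 0.69, against -0.07 and -0.22 in the 9 cells. With the 2 Pf4-poor KO cells added, 186 were separated higher and 71 lower. With the libraries without a prefix averaged into 1 value per genotype, which leaves 2 values a side, 1029 genes were separated higher and 450 lower. Averaging cannot make separated groups overlap, so these counts do not check the separation. Leaving out KO B1-3 raised the lower genes to 543 and leaving out WT B1-1 raised them to 431.

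**Figure D1:**
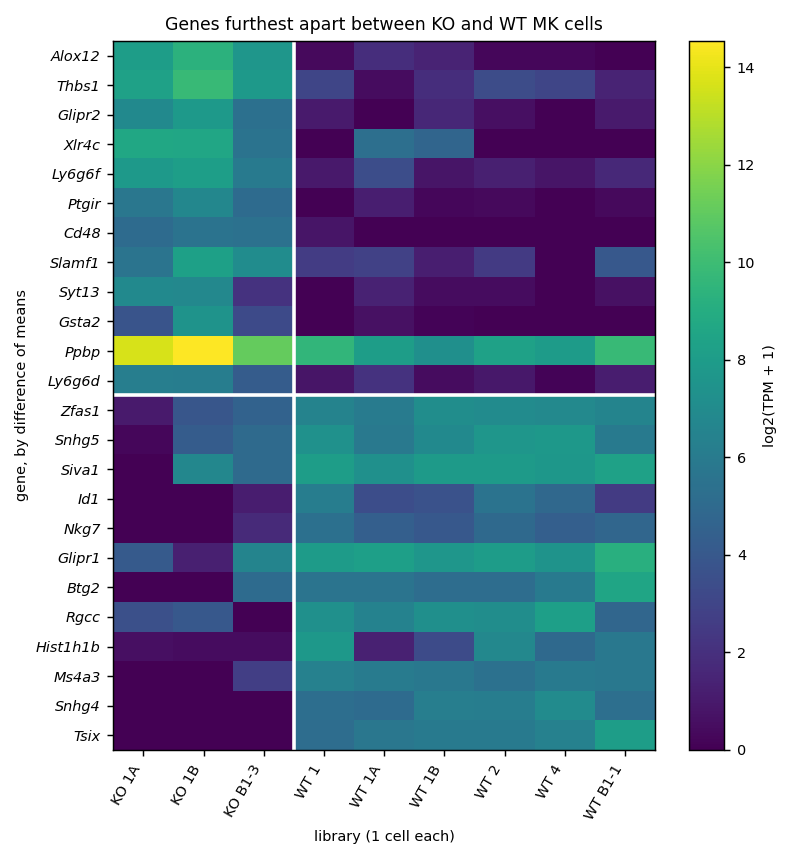
Heat map of log2(TPM + 1) for the 12 highest and 12 lowest named genes (rows, ordered by the difference of means) in the 3 KO and 6 WT libraries (columns, KO left of the white line). The 12 upper genes are brighter in all 3 KO cells than in any WT cell, and the 12 lower genes are darker in all 3 KO cells, with KO B1-3 nearest to WT in genes such as Ppbp and Syt13.

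The widest gap was in Alox12 (chr11:70241457-70255380), the platelet 12-lipoxygenase that makes 12-HETE from arachidonic acid. It had 269.9, 653.1 and 200.9 TPM in KO 1A, KO 1B and KO B1-3, against 0 to 2.8 TPM in WT cells with a median of 0.25. All 3 KO cells were high, all WT cells were near 0, and the means differed by 7.65 on the log2 scale against a pooled SD between cells of 0.81. The gap was as wide in the set without a prefix (7.86) as in B1 (7.66). The Pf4-poor KO cells, KO 2 and KO B1-4, had 2.1 and 0 TPM, at the WT level. Outside MK cells Alox12 was listed at 0 in all 13 KO cells and reached 5.4 TPM in WT cells.

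Cd48 (chr1:171681245-171705258), a SLAM family ligand that marks multipotent progenitors but not the most primitive mouse stem cells, had 32.9, 45.3 and 42.2 TPM in KO 1A, KO 1B and KO B1-3. WT 1 had 0.8 TPM and the other 5 WT cells were listed at 0. The difference was 5.21 against a pooled SD of 0.32, and KO cells varied little. This transcript did not follow platelet content: KO 2 and KO B1-4 had 542.7 and 442.4 TPM, 11 of 13 KO cells that did not look like MK had 1 TPM or more, and all 9 such WT cells were listed at 0.

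Ppbp, the gene of the platelet chemokine CXCL7, lies beside Pf4 on chromosome 5 (chr5:90768518-90770063). It had 12777.5, 23854.3 and 2218.8 TPM in KO 1A, KO 1B and KO B1-3, against 152.1 to 882.2 TPM in WT cells with a median of 298.45. The ranges did not overlap, and the difference was 4.59 against an SD of 1.26. It was 5.84 in the set without a prefix but 1.33 in B1, where KO B1-3 was the lowest KO cell and WT B1-1 the highest WT cell. Pf4 itself, which chose the cells, differed by 0.29.

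Npm1 (chr11:33152498-33164142), which encodes the nucleolar chaperone nucleophosmin, went the other way. It had 327.3, 218.1 and 487.4 TPM in KO 1A, KO 1B and KO B1-3, against 821.5 to 1553.1 TPM in WT cells with a median of 1315.35. The difference was -1.91 against an SD of 0.41, and -0.75 in B1, where WT B1-1 held the lowest WT value. Alox12, Cd48, Ppbp and Npm1 were picked for their difference in these same cells, so their values are a description.

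Among the other genes far higher in KO cells, Thbs1, the alpha-granule adhesive protein thrombospondin-1, had 314.4, 888.1 and 233.7 TPM in KO 1A, KO 1B and KO B1-3. WT cells had 0.4 to 9.3 TPM of it with a median of 4.95, and the difference was 6.45 (SD 1.09). Ptgir, the prostacyclin receptor that restrains platelet activation, had 52.5, 107.1 and 32.6 TPM in the same KO cells, against 0 to 1.3 TPM in WT cells, a difference of 5.49 (SD 0.59). Glipr2 differed by 5.95, Ly6g6f, an immunoglobulin superfamily receptor of platelets, by 5.82, its neighbour Ly6g6d by 4.59, Gsta2, a glutathione transferase, by 4.70 and Syt13, a synaptotagmin, by 4.75. Syt13 was uneven among KO cells, at 117.1, 109.7 and 3.3 TPM in KO 1A, KO 1B and KO B1-3. Ptgir, Glipr2, Ly6g6f, Gsta2 and Syt13 passed the filter only through their KO values, so their direction was fixed by it. Xlr4c on the X chromosome had 407.1, 392.9 and 45.7 TPM in KO cells and up to 38.4 TPM in WT cells, a difference of 5.94 (SD 2.40). Xlr4 genes, Gsta2 and histone genes have near-identical copies, so reads may have been split among them.

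Of the 12 genes furthest lower in KO cells, 4 are non-coding genes. Tsix, the antisense partner of Xist, and Snhg4 were listed at 0 in all KO cells, against 35.4 to 276.1 TPM and 33.2 to 130.8 TPM in WT cells. Both, like Id1 below, passed the filter only through their WT values, so their direction was fixed by it. Tsix and Xist overlap on opposite strands and no source used here names the strand setting, so their reads cannot be told apart. Snhg5 differed by -3.71 and Zfas1 by -3.51. The coding genes were Ms4a3 (-4.99), a granulocyte-monocyte progenitor gene, Hist1h1b (-4.49), Rgcc (-4.33), Btg2 (-4.32), an antiproliferative early response gene, Glipr1 (-4.10), Nkg7 (-4.09), a granule membrane protein of cytotoxic cells, Id1 (-3.99), an inhibitor of helix-loop-helix factors, and Siva1 (-3.96). Btg2 had 0, 0 and 32.7 TPM in KO 1A, KO 1B and KO B1-3, against 35.7 to 381.0 TPM in WT cells. KO B1-3 lay close to the lowest WT cell in this gene. Siva1 varied widely, with 0, 103.7 and 31.8 TPM in the same KO cells, against 156.9 to 316.2 TPM in WT cells.

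Genes of platelet surface receptors were largely higher in KO cells. Of 24 listed genes in the table, 20 passed the filter, and 11 of them were separated higher (55.0%, background 11.5%) and 1 lower, with a median difference of 2.05. The subunits of the von Willebrand factor receptor did not all separate. Gp9 had 164.5, 205.8 and 73.3 TPM in KO 1A, KO 1B and KO B1-3, against 19.9 to 30.7 TPM in WT cells with a median of 26.6, a difference of 2.36 (SD 0.46). Gp1bb had 349.5, 574.4 and 253.4 TPM in the same KO cells, against 61.6 to 112.7 TPM in WT cells (2.11, SD 0.41). Gp1ba (2.75) and Gp5 (2.77) were past the fold, yet their ranges overlapped, because WT B1-1 reached 30.7 TPM for Gp1ba and 413.8 TPM for Gp5. Within B1, Gp1ba differed by 0.27.

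The collagen receptor gene Gp6 had 25.2, 59.2 and 8.3 TPM in KO 1A, KO 1B and KO B1-3 and 0 to 1.0 TPM in WT cells, a difference of 4.33 (SD 0.80). Gp6 passed the filter only through its KO values, so its direction was fixed by it. Clec1b, the podoplanin receptor CLEC-2, had 642.2, 848.7 and 110.7 TPM in KO cells, against 8.0 to 30.7 TPM in WT cells with a median of 13.85, a difference of 4.55 (SD 1.03). Both were lowest in KO B1-3 among KO cells. Treml1, a receptor stored in alpha-granules, differed by 3.85, Cd226 by 4.33, the junctional adhesion molecule F11r by 2.77, the laminin receptor subunit Itga6 by 2.06 and Esam by 2.05. For the fibrinogen receptor, Itgb3 was separated at 1.71, whereas Itga2b, which encodes the CD41 used in the sort, had 167.9, 263.4 and 317.9 TPM in KO cells and 46.8 to 454.7 TPM in WT cells. Itga2b was 1.14 higher on the whole and -0.52 in B1. The exception was Icam2, an integrin ligand of leukocytes and endothelium, at 0.5, 0 and 0 TPM in KO cells and 8.7 to 16.5 TPM in WT cells (-3.57, SD 0.31). Icam2 passed the filter only through its WT values, so its direction was fixed by it. With the 2 Pf4-poor KO cells added, the list median was 0.33, and Itgb3 and Gp1bb were lower on average in KO cells (-0.95 and -1.30).

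The start regions of Cd48 and of the receptor genes Gp9 and Clec1b are shown because they carry short motifs that RUNX and GATA factors recognise. All 3 genes were high in every KO cell. Each runs 5′ to 3′ on the plus strand from RefSeq on GRCm38.p6, from 250 bases before to 50 after a start site, and capitals mark the motifs, searched on both strands. The RUNX motif was taken as TGTGGT, with TGCGGT as its other form, and the GATA motif as AGATAA, with TGATAA as its other form. Cd48 lies at chr1:171681742-171682041, Gp9 at chr6:87777820-87778119 and Clec1b at chr6:129397047-129397346. The Cd48 window lies inside the gene span given above, at a start site downstream of the first base of that span.
Cd48: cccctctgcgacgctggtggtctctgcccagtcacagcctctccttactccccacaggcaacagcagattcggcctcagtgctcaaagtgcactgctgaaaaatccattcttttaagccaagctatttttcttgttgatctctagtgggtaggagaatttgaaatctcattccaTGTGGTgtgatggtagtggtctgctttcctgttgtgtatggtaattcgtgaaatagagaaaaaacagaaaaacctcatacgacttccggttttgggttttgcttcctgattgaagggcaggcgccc
Gp9: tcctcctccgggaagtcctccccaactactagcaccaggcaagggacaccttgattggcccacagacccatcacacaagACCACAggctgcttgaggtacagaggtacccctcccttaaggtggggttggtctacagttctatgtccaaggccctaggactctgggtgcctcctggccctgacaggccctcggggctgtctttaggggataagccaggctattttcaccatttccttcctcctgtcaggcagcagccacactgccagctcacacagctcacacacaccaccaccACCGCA
Clec1b: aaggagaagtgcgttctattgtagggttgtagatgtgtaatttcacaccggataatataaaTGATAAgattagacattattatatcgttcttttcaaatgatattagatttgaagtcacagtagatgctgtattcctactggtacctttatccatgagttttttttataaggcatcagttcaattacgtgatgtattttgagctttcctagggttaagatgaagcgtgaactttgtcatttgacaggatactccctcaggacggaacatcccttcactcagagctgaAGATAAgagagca
The Cd48 window held 1 RUNX motif and no GATA motif, the Gp9 window 2 RUNX motifs, and the Clec1b window 2 GATA motifs. Such motifs are common: of 32851 mouse promoter windows of this length, 22.4% held the RUNX motif and 18.6% the GATA motif. The RUNX motif was in 24.5% of 563 separated higher genes with a window, in 26.6% of 169 separated lower genes and in 23.9% of 4850 tested genes. These shares count each gene once, if any of its windows held the motif, whereas the shares before them count windows. Among the receptor genes with a window the RUNX motif was in 2 of 14 (14.3%), and among the RUNX1-linked genes described below in 1 of 14 (7.14%). The windows shown with a RUNX motif are thus not typical of those lists. In the cargo and signalling lists described below it was in 3 of 11 (27.3%) and 6 of 24 (25.0%). The GATA motif was in 14.6%, 13.6% and 11.6% of the separated higher, separated lower and tested genes. It was in 4 of 14 receptor (28.6%), 3 of 11 cargo (27.3%), 6 of 24 signalling (25.0%) and 4 of 14 RUNX1-linked genes with a window (28.6%). These lists are small, and the shares were not tested. The windows of Alox12 and Ppbp held neither motif. Of the 24 named genes, 17 had a window in the table.

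Alpha-granule cargo was higher as well, with 8 of 17 measured genes separated (47.1%), none lower, and a median difference of 1.87. A further 10 listed genes did not pass the filter. Beside Ppbp and Thbs1, the coagulation factor V gene F5 had 74.8, 129.7 and 56.4 TPM in KO 1A, KO 1B and KO B1-3, against 0.7 to 9.1 TPM in WT cells (4.05, SD 0.86). Clu, which encodes clusterin, had 467.0, 1043.5 and 459.5 TPM in KO cells, against 45.2 to 113.8 TPM in WT cells (2.95, SD 0.51). Vwf was low in both, at 16.9, 36.2 and 15.4 TPM in KO cells and 3.7 to 8.3 TPM in WT cells (1.87). The chemokine gene Cxcl5 (3.08) and Pdgfb (2.30) were also separated. F13a1, the transglutaminase that crosslinks fibrin, rested on KO 1B with 349.5 TPM, against 6.6 and 3.0 TPM in KO 1A and KO B1-3 and 0.8 TPM or less in WT cells. F13a1 passed the filter only through its KO values, so its direction was fixed by it. Thbs1 and F5 were also low in WT cells and passed the filter mainly through their KO values. Serglycin, the granule proteoglycan made from Srgn, and Mmrn1 differed by 0.57 and 0.50 with overlapping ranges. Serpine2, a protease inhibitor, was past the fold the other way (-1.49) with ranges that overlapped. The list median was 1.11 with a pseudocount of 10 and 0.66 with the Pf4-poor KO cells added, where Clu and Cxcl5 differed by -0.07 and -0.13.

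The receptors that answer soluble agonists, and the proteins that signal behind them, had the largest share of separated genes among the lists with 10 or more measured members: 23 of 29 measured (79.3%) were higher, none was lower, and the median difference was 1.84. A further 11 genes did not pass the filter. Ptgir, among the 23, passed the filter only through its KO values, so its direction was fixed by it. For ADP and ATP, P2ry1 had 124.1, 213.7 and 167.5 TPM in KO 1A, KO 1B and KO B1-3, against 8.1 to 19.3 TPM in WT cells with a median of 11.9 (3.71, SD 0.41). P2rx1 followed at 2.55. For thrombin, F2rl2 (protease-activated receptor 3, the cofactor for thrombin on mouse platelets) had 1958.9, 2287.4 and 2316.5 TPM in KO cells, against 119.0 to 297.5 TPM in WT cells (3.38, SD 0.43). F2rl3, receptor 4, which signals for thrombin in mouse platelets, had 67.8, 184.3 and 97.2 TPM in KO cells and 18.8 to 28.1 TPM in WT cells (2.15, SD 0.43). All of these were high in each KO cell, KO B1-3 included. The thromboxane receptor gene Tbxa2r differed by 1.70 and by 0.32 in B1.

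Behind the receptors, Prkcq, the protein kinase C theta gene, had 74.4, 117.3 and 96.6 TPM in KO 1A, KO 1B and KO B1-3, against 5.5 to 9.4 TPM in WT cells (3.55, SD 0.28). The genes of the integrin activation route were separated: Rasgrp2 (2.49), which loads Rap1, Rap1b (1.42), Rap1a (1.22) and the integrin adaptor gene Fermt3 (2.12), although Tln1, the talin gene, differed by 0.47 with overlapping ranges. The adaptors of the collagen receptor pathway, Lcp2 (2.35, SD 0.27) and Lat (2.05, SD 0.33), were higher in every KO cell, as were its kinases Syk (1.06), Lyn (1.72) and Btk (1.84). Lcp2, the SLP-76 gene, had 321.5, 323.9 and 408.8 TPM in KO cells and 52.0 to 84.1 TPM in WT cells. G protein subunit genes Gnaq and Gnai2 were each 1.20 higher, but in B1 they differed by 0.14 and 0.06. Brakes of signalling were higher too: the regulators Rgs18 (1.47) and Rgs10 (1.85), and the phosphodiesterase gene Pde5a (2.03). In the full table the list median was 1.11, and Rap1b and Pde5a differed by -0.58 and -0.18. With the Pf4-poor KO cells added the median was 0.82, and Rap1b, Tbxa2r and Gnaq differed by -0.03, -0.01 and -0.13.

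**Figure D2:**
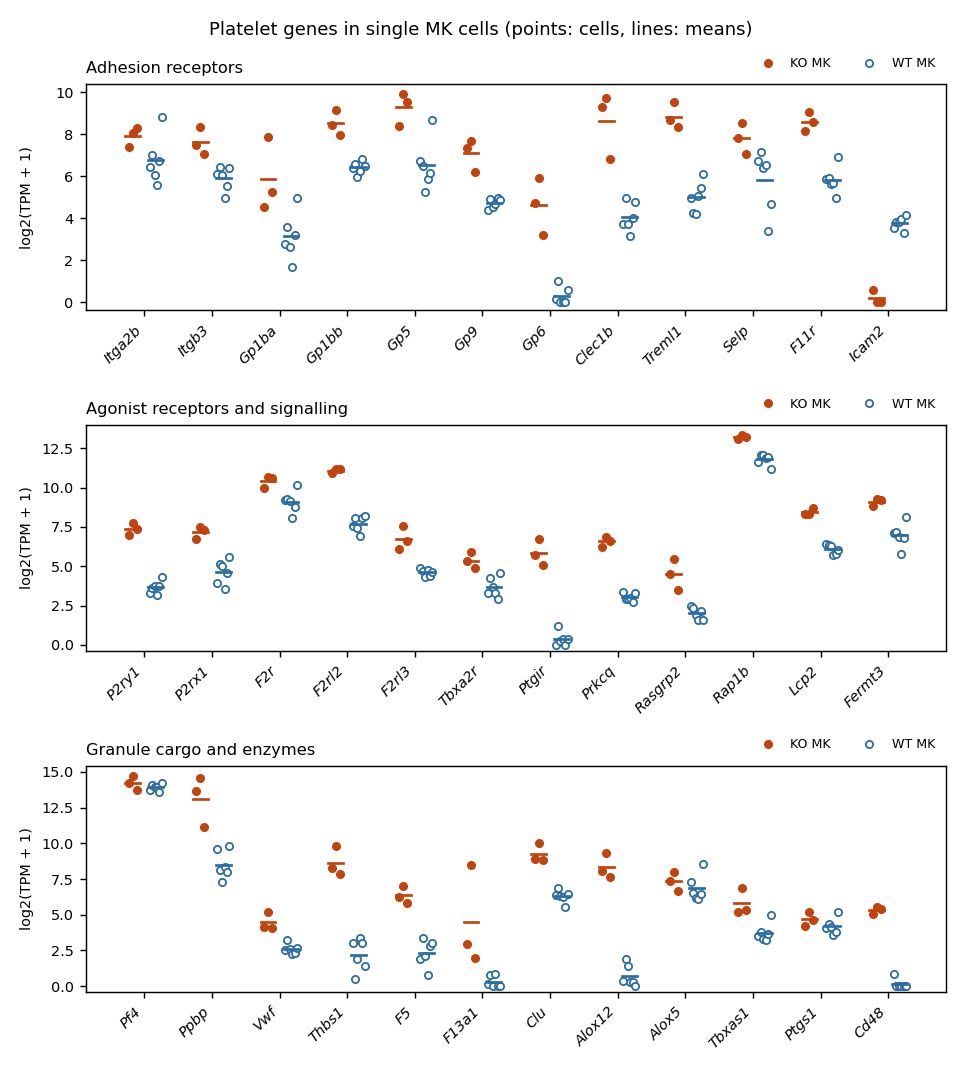
Values of 36 platelet genes as log2(TPM + 1) in each of 3 KO cells (filled, left in each pair) and 6 WT cells (open), with lines for the means. Groups do not overlap for Gp6, Clec1b, P2ry1, F2rl2, Prkcq, Thbs1, Alox12 and Cd48, and do overlap for Itga2b, Gp5, Alox5 and Pf4, where WT B1-1 is the highest WT cell.

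Genes that earlier work has tied to RUNX1 in platelets, largely from people with an altered copy, were not lower in these KO cells. Of 18 measured, 12 were separated higher (66.7%), none was lower, and the median difference was 1.69. Besides Alox12 and Prkcq they include Plek (2.12), the major protein kinase C substrate of platelets, with 1750.6, 2553.3 and 1567.9 TPM in KO 1A, KO 1B and KO B1-3, against 257.2 to 606.0 TPM in WT cells. The vesicle trafficking gene Rab1b had 158.3, 234.5 and 321.0 TPM in KO cells and 52.4 to 120.2 TPM in WT cells (1.67, SD 0.44). Pctp (0.72), Vamp8 (-0.13) and Pf4 stayed within the fold. Myl9, a myosin light chain gene of this list, was at 0.2 TPM or less in all 9 cells, and Tubb1, the platelet beta-1 tubulin gene, fell below the filter at 5.8, 5.1 and 7.6 TPM in KO cells and 0.1 TPM or less in WT cells. Myl9 and Tubb1 were picked out after their values were seen. Alox12 and F13a1, both separated, passed the filter only through their KO values, so their direction was fixed by it. This list was compiled with earlier results of these data known, so its direction is no independent evidence. Its median was 1.01 with the Pf4-poor KO cells added.

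Transcription factors of the lineage were mixed, with 5 of 17 measured separated higher (29.4%), 2 lower (11.8%, background 4.13%) and a median of 0.49 (0.18 in the full table and -0.01 with the Pf4-poor KO cells added). Gata1, the X-linked master regulator of megakaryocyte and erythroid maturation, had 152.0, 302.1 and 285.1 TPM in KO 1A, KO 1B and KO B1-3. WT cells had 11.2 to 41.0 TPM of Gata1 with a median of 30.15, a difference of 3.08 (SD 0.63) that held in B1 (3.16). Gata2, which GATA1 displaces as cells mature, had 2.8, 8.7 and 9.5 TPM in KO cells, against 10.3 to 32.5 TPM in WT cells (-1.36, SD 0.69). Myb, a progenitor factor, had 0, 0 and 6.5 TPM in KO cells, against 7.1 to 26.0 TPM in WT cells (-3.16, SD 1.03). Myb passed the filter only through its WT values, so its direction was fixed by it. Nfe2, needed for platelet release, differed by 1.61, Gfi1b by 1.70, the LIM-binding cofactor gene Ldb1 by 1.46 and the ETS factor gene Fli1 by 1.10. Zfpm1, Tal1 and Lmo2 differed by 0.26, 0.07 and 0.54, within the fold. In the RUNX family, Runx3 was past the fold lower (-2.16), with 0.5, 7.2 and 15.3 TPM in KO cells, 11.5 to 59.6 TPM in WT cells and overlapping ranges. The partner gene Cbfb differed by -0.33.

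Among enzymes of eicosanoid synthesis, 3 of 12 measured genes were separated higher (25.0%), none lower, with a median of 0.44 (-0.09 in the full table). They were Alox12, the thromboxane synthase gene Tbxas1 (2.07, but 0.41 in B1) and Hpgds, the hematopoietic prostaglandin D synthase gene, with 65.5, 38.8 and 42.6 TPM in KO 1A, KO 1B and KO B1-3 and 1.6 to 17.1 TPM in WT cells (2.95, SD 0.83). The leukotriene enzyme gene Alox5 differed by 0.47, with 379.0 TPM in WT B1-1, above every KO cell, and by -1.91 in B1. The cyclooxygenase gene Ptgs1 and the phospholipase gene Pla2g4a differed by 0.50 and 0.42. Of 12 SLAM family genes in the table, 9 fell below the filter and 3 were separated higher. Cd48, like Alox12, passed the filter only through its KO values, so its direction was fixed by it. Slamf1, which encodes the stem cell marker CD150 (chr1:171767131-171801184), had 47.2, 309.8 and 133.5 TPM in KO cells, against 0 to 15.2 TPM in WT cells with a median of 4.7 (4.81, SD 1.38). Cd84, whose product is found on platelets (chr1:171839697-171890718), differed by 1.82.

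Of 36 measured genes of the proplatelet cytoskeleton, 15 were separated higher (41.7%) and 1 lower, with a median of 0.78. Tropomyosins stood out: Tpm4 had 2428.7, 4515.3 and 2181.1 TPM in KO 1A, KO 1B and KO B1-3, against 313.0 to 587.7 TPM in WT cells (2.70, SD 0.43), Tpm1 differed by 1.52 (SD 0.19) and Tpm3 by 1.18 (SD 0.16). Actin regulators followed, with zyxin (Zyx, 2.62), the actin disassembly gene Wdr1 (2.12), gelsolin (Gsn, 2.37), vinculin (Vcl, 1.11) and the GTPase gene Rac1 (1.35). Tubulins differed in direction. Tuba4a had 388.8, 818.6 and 373.4 TPM in KO cells and 166.6 to 244.1 TPM in WT cells (1.34, SD 0.39), while Tubb6 had 35.0, 0.5 and 28.9 TPM in KO cells and 50.6 to 258.7 TPM in WT cells (-3.13, SD 1.54). Tuba8 and Tubb5 differed by 0.24 and -0.48, within the fold. Myh9, the non-muscle myosin IIA gene, differed by 0.47 and by -1.66 in B1. With the Pf4-poor KO cells added, the list median was 0.32 and Tpm4 differed by -0.74.

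Granule formation and secretion genes had 10 of 19 measured members separated higher (52.6%), none lower, and a median of 1.19. A further 15 did not pass the filter. For alpha-granules, Vps33b had 90.0, 109.0 and 112.0 TPM in KO 1A, KO 1B and KO B1-3, against 7.7 to 80.7 TPM in WT cells (2.65). The high WT value was again WT B1-1, and the B1 difference was 0.47. For dense granules, Slc35d3 differed by 2.22, Rab32 by 2.13 and Rab27b by 1.68. Of the membrane fusion genes, Snap23 had 68.2, 80.3 and 60.9 TPM in KO cells, against 14.4 to 18.0 TPM in WT cells (2.01, SD 0.15), Stx11 differed by 2.6 and Stxbp2 by 1.19. Rab38 was past the fold lower (-1.06) with overlapping ranges. The list median was 0.67 in the full table and 0.76 with the Pf4-poor KO cells added, where Slc35d3 differed by -0.82.

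**Figure D3:**
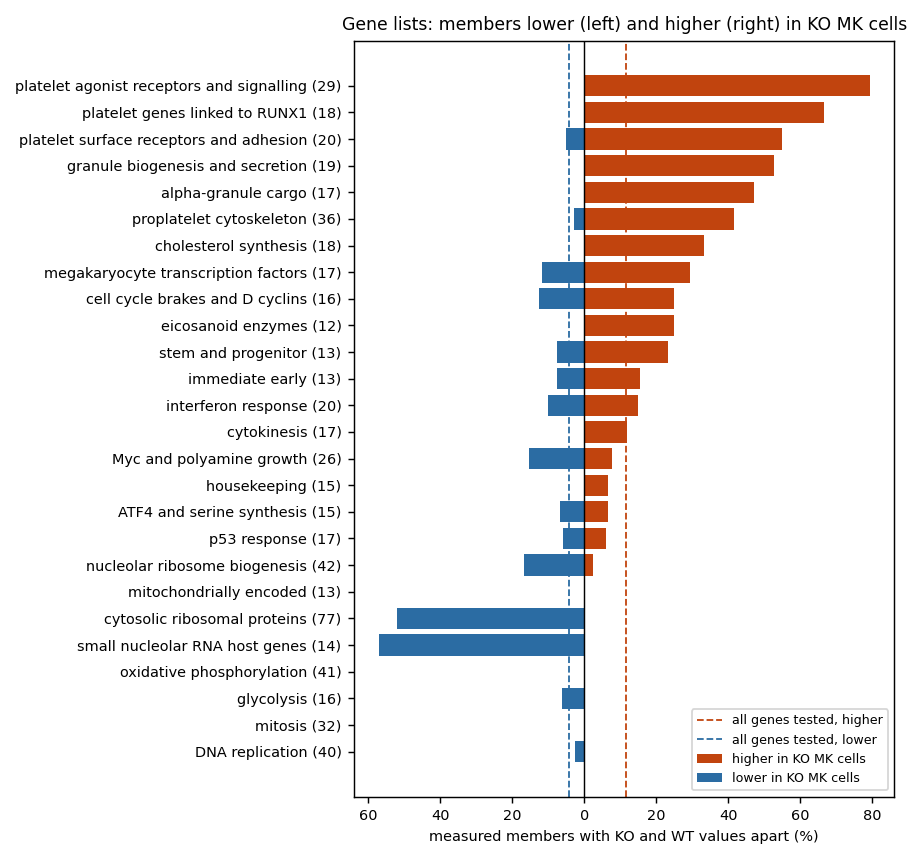
Share of measured members of each gene list (number measured in brackets) that were separated higher (right, orange) or lower (left, blue) in KO MK cells, with dashed lines at 11.5% and 4.13% for all genes tested. The lists of platelet receptors, signalling, cargo, granules and cytoskeleton reach 41.7 to 79.3% on the right, and ribosomal protein and small nucleolar RNA host genes 51.9 and 57.1% on the left.

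Of 34 listed stem and progenitor genes, 13 passed the filter, and 10 of these were higher on average in KO cells, with a median of 0.82 (0.12 in the full table). Slamf1, Esam and Mllt3 (1.68) were separated higher (23.1%) and Ifitm3 lower (7.69%). The stem cell surface genes Kit and Procr were listed at 0 in the 3 KO cells and reached 4.3 and 0.8 TPM in WT cells. Both were present in the Pf4-poor KO cells, at 54.0 and 115.7 TPM in KO B1-4 and 21.0 and 50.3 TPM in KO 2. Cd34 had 233.6, 353.4 and 123.5 TPM in KO cells and 67.4 to 155.0 TPM in WT cells, past the fold at 1.30 with overlapping ranges.

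Markers of other cells differed by lineage. Of 23 granulocyte and monocyte genes, 8 were at 0 in all 9 cells, Csf1r, Csf3r, S100a8 and Itgam among them. Summed TPM of this list was 274.2 to 740.3 in KO and 165.1 to 350.6 in WT cells, most of it from the lysozyme gene Lyz2, which was separated higher (1.24). Of 22 lymphoid genes, 13 were at 0 throughout, including Cd3e, Cd4 and Pax5, with sums of 0 to 26.4 TPM in KO and 22.2 to 43.5 TPM in WT cells. Mast cell sums of 2585.0 to 4223.9 TPM in KO and 136.0 to 4761.8 TPM in WT cells were mostly Fcer1g, which megakaryocytes express with Gp6. Mcpt8, Prss34 and Tpsab1 were at 0 in all cells, and 3 of 17 listed genes reached 1 TPM in a KO cell and 10 in a WT cell. Counts of this kind, also for erythroid genes below, need only 1 cell, and 6 WT cells give more openings than 3 KO cells. Of 16 stromal and endothelial genes, 7 were at 0, and sums were 26.2 to 41.9 TPM in KO and 10.6 to 37.6 TPM in WT cells. Of 22 erythroid genes, 11 reached 1 TPM in a KO cell and 10 in a WT cell, and the list summed to 767.6 to 2529.5 TPM in KO and 516.6 to 929.5 TPM in WT cells. KO 1B held the highest sum, with 1302.1 TPM of the beta-globin gene Hbb-bt, against 126.4 TPM or less in WT cells. Hba-a1, Car1 and Rhag were among 6 genes at 0 throughout, and the part of erythroid transcripts in other results for KO 1B was not tested. The erythropoietin receptor gene Epor was the only separated member, with 18.7, 19.4 and 22.8 TPM in KO 1A, KO 1B and KO B1-3 and 1.0 to 6.4 TPM in WT cells (2.64, SD 0.55).

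Transcripts of the ribosome were lower in KO cells. Ribosomal protein genes made up 7.77%, 4.89% and 6.80% of all TPM in KO 1A, KO 1B and KO B1-3, against 11.9 to 13.9% in WT cells with a median of 12.04%, with no overlap. All 77 measured genes were lower on average in KO, and 40 of them were separated (51.9%, background 4.13%), with a median difference of -1.01. The set was chosen by name after values were seen, and reads may be shared with ribosomal pseudogenes. Rps12 had 663.5, 285.4 and 497.5 TPM in KO cells, against 1051.2 to 1577.0 TPM in WT cells (-1.42, SD 0.40), and Rpl10 was at the other end with a difference of -0.33. The median was -1.03 without a prefix and -0.83 in B1, and -1.29 after median-ratio rescaling. In the full table it was -0.81, and Rpl27 and Rps7 differed there by 0.23 and 0.43.

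Factors that build ribosomes in the nucleolus had 7 of 42 measured genes separated lower (16.7%) and Bysl separated higher (2.38%), with 40 of 42 lower on average and a median of -1.07. Fbl, the fibrillarin gene, had 46.6, 41.8 and 130.8 TPM in KO 1A, KO 1B and KO B1-3, against 172.2 to 384.2 TPM in WT cells (-1.99, SD 0.62). Nop10, a component of the pseudouridine-forming particle, had 448.4, 205.3 and 519.2 TPM in KO cells, against 1158.8 to 1768.6 TPM in WT cells (-2.01, SD 0.42). Unlike ribosomal proteins, this list did not hold within both title sets. Its median was -1.67 in the full table, -1.58 without a prefix and -0.52 after averaging, but 0.35 in B1, where WT B1-1 lay well below the other WT cells. Wdr43, for example, had 11.8, 6.7 and 54.7 TPM in KO cells, and 9.3 TPM in WT B1-1 against a WT median of 45.05. The lower median was thus seen in the libraries without a prefix and not in B1.

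**Figure D4:**
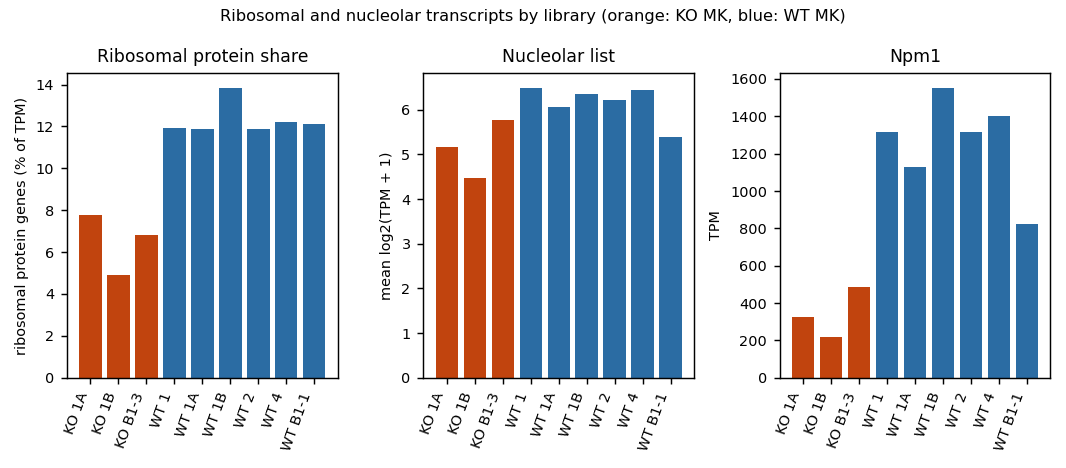
Share of TPM on ribosomal protein genes, mean log2(TPM + 1) of the nucleolar list and TPM of Npm1 in each of 3 KO (orange) and 6 WT (blue) libraries. Ribosomal protein shares are lower in each KO cell, whereas the nucleolar mean of KO B1-3 (5.77) is above that of WT B1-1 (5.38).

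Host genes of small nucleolar RNAs, listed after their values were seen, were lower in KO cells. Of 14 measured, 8 were separated lower (57.1%), all 14 were lower on average, and the median was -2.02 (-1.44 in B1). Gas5, whose introns hold many such RNAs, had 91.7, 90.6 and 96.8 TPM in KO 1A, KO 1B and KO B1-3, against 228.7 to 345.7 TPM in WT cells (-1.62, SD 0.19). Snhg15 had 52.5, 8.6 and 68.5 TPM in KO cells, against 222.0 to 413.4 TPM in WT cells (-3.20, SD 0.87). Growth genes linked to Myc had a median of 0.01 (-0.99 in the full table). Of 26 measured, 2 were separated higher (7.69%, background 11.5%) and 4 lower (15.4%, background 4.13%). Myc itself had 0, 0 and 1.9 TPM in KO cells and 3.8 to 31.2 TPM in WT cells (-3.12, SD 0.98), whereas its antagonist gene Mxd1 had 19.1, 28.1 and 38.8 TPM in KO cells and 0.5 to 8.0 TPM in WT cells (3.13, SD 0.76). Myc passed the filter only through its WT values and Mxd1 only through its KO values, so their directions were fixed by it. The mitochondrial chaperonin genes Hspe1 (-2.20) and Hspd1 (-1.45) were separated lower, though they differed by -0.79 and -0.02 in B1.

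DNA replication genes were lower on average in 37 of 40 measured cases. Of the 40, 18 were past the fold lower, against 10.3% of all genes tested. Only Dut, the dUTP pyrophosphatase gene, was separated (2.5%, background 4.13%), at -1.97. Rrm2, a ribonucleotide reductase subunit gene, had 60.2, 1029.1 and 84.6 TPM in KO 1A, KO 1B and KO B1-3, against 219.2 to 733.1 TPM in WT cells. Pcna had 223.9, 1188.1 and 307.2 TPM in KO cells, against 481.1 to 1475.8 TPM in WT cells. KO 1B was the highest KO cell for both and overlapped WT cells. The list median of -0.82 was -1.38 in the full table, -1.30 without KO 1B and -0.37 without KO 1A. No mitosis gene of 32 was separated, and Ccnb2 ranged from 0 to 753.3 TPM among KO cells.

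Genes that halt or steer the cycle varied individually. The D-type cyclin gene Ccnd3 had 93.7, 164.2 and 126.3 TPM in KO 1A, KO 1B and KO B1-3, against 28.4 to 52.5 TPM in WT cells (1.72, SD 0.34). Its kinase gene Cdk6 had 3.9, 12.4 and 12.6 TPM in KO cells, against 24.4 to 40.1 TPM in WT cells (-1.64, SD 0.51). The inhibitor gene Cdkn2d (1.25), the retinoblastoma gene Rb1 (1.94) and Gadd45g (2.06, but -0.17 with the Pf4-poor KO cells added) were separated higher. Cdkn1a had 4.1, 62.4 and 186.7 TPM in KO cells and 13.9 to 844.2 TPM in WT cells, with overlap.

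In metabolism, 6 of 18 measured cholesterol synthesis genes were separated higher (33.3%), none lower, with a median of 0.997. Sqle, squalene epoxidase, had 215.4, 259.0 and 565.5 TPM in KO 1A, KO 1B and KO B1-3, against 47.6 to 168.2 TPM in WT cells (1.56, SD 0.66). Insig1, which holds back the pathway's regulator, had 468.6, 991.5 and 320.0 TPM in KO cells, against 28.9 to 110.5 TPM in WT cells (2.78, SD 0.75). Idi1, Fdft1, Cyp51 and Sc5d were higher by 1.05 to 1.51. In the full table the list median was 0.22, and Idi1 and Cyp51 differed by -0.63 and -0.56, and with the Pf4-poor KO cells added the median was 0.52. None of 41 oxidative phosphorylation genes was past the fold, and of 16 glycolysis genes only the lactate transporter gene Slc16a1 was separated, at -2.07.

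Stress and interferon lists had small numbers of separated genes, but their shares were not all below the background (11.5% higher, 4.13% lower). The interferon and early response shares were above it in both directions, and the p53 share only for lower genes. Each of these shares rests on a few genes. Of 20 measured interferon response genes, Ifi27 (2.27), Isg20 (1.97) and Ddx58 (2.05) were separated higher and Ifitm3 (-1.12) and Bst2 (-1.59) lower. Ifitm3, an antiviral membrane protein gene, had 1878.5, 1334.1 and 1828.2 TPM in KO 1A, KO 1B and KO B1-3, against 3069.8 to 4084.9 TPM in WT cells. Of 17 p53 response genes, Sesn1 was separated higher (1.05) and Trp53 lower (-1.23), 5.88% each way. None of 6 measured NF-kB and inflammatory genes was separated. Among 13 measured early response genes, Zfp36 and Dusp2 were separated higher by 1.93 and 2.18 (15.4%) and Btg2 lower (7.69%). Fos was listed at 0 in all KO cells and in most WT cells, with 68.0 TPM in WT B1-1.

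On the X chromosome, 30 of 216 tested genes were separated higher (13.9%) and 10 lower (4.63%), close to the shares over all genes. Leaving out genes on X and Y, an alternative chosen after seeing the data, gave 737 higher and 266 lower. Xist had 0 TPM in each KO cell and 6.6 to 50.4 TPM in WT cells, and Ddx3y, on the Y chromosome, had 8.2, 4.8 and 20.9 TPM in KO cells and 0 in all WT cells. Ddx3y has a related gene on X. Whether autosomal genes moved with sex was not tested.

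The separated genes were chosen on both title sets together, so their direction within each set follows from that choice and only its size is free. Within the set without a prefix, 708 of the 768 separated higher genes and 269 of the 276 lower genes were past the fold the same way. Within B1, with 1 cell of each genotype, 532 and 150 were, and 474 and 143 were in both. Their median difference was 1.70 without a prefix and 1.38 in B1 for higher genes, and -1.54 and -1.08 for lower genes. KO cells also differed among themselves: KO 1B was the highest KO cell in 396 of the 768 higher genes and the lowest in 194 of the 276 lower genes.

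**Figure D5:**
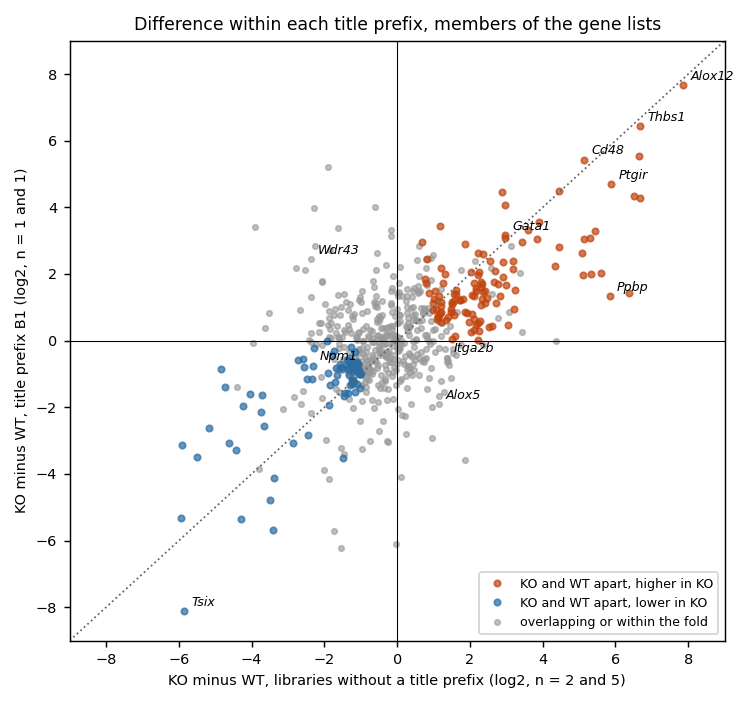
Differences (KO minus WT, log2) for measured members of the gene lists in libraries without a title prefix (x axis, 2 KO and 5 WT cells) and with the prefix B1 (y axis, 1 cell each); the dotted line marks equal values. Alox12, Thbs1, Cd48 and Gata1 lie near the line, Ppbp lies below it, and Itga2b, Alox5 and Wdr43 have opposite signs.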

How the data were processed

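Per the labels, single cultured cells were amplified with a SMART-Seq kit and sequenced. The authors deposited TPM values per gene, rounded to 1 decimal, in a full table and a table without outliers, and the 33 libraries in both held identical values. FastQC 0.11.7, cutadapt 1.9.1, STAR 2.6.1e, featureCounts 1.6.2 and mm10 are named per the submitters' processing notes. How TPM was derived from counts, with which gene models and strand option, and why libraries were left out is not given in the sources used here. Depth is unknown from TPM, and 1 column matching no label was not used.

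Group means of log2(TPM + 1) were compared as KO minus WT with Python 3.11.15, numpy 2.4.6, pandas 2.3.3 and matplotlib 3.10.9, in scripts first tested on simulated data. Genes averaging 5 TPM or more over the group means were kept. Adding 1 TPM understates the change of low genes. With cells as the unit and no animal named, no p-value was computed, and 24 alternatives were tried. The members and 31 gene lists were chosen with earlier results of these data known, and 5 further lists (small nucleolar RNA hosts, X and Y transcripts, the Ly6g6 and Xlr genes, ribosomal proteins and mitochondrial genes) after their values were seen. Named genes were the 12 highest and 12 lowest separated genes at 10 TPM or more, without predicted, ribosomal protein, mitochondrial and small RNA genes or pseudogenes, then Cd48, Alox12, Ppbp, Npm1, Pf4, Runx1, measured members of the megakaryocyte lists, and separated or most changed members (4 per list) of the others. A few genes are not reported here. Gene positions and promoters came from RefSeq, GRCm38.p6. Genes that match none of these and are named nonetheless, such as Kit, Procr and the markers at 0, were chosen after their values were seen.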

Additional observations from a re-analysis of the deposited data

Results flagged for a closer look

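Of 27 results checked for a WT cell far from the other 5, 5 had one. In 4 of these the WT values were 10 TPM or less, where a small rise stands out. No rate by chance is therefore set beside the count. Ly6g6f reached 10 TPM in WT 1A, against 0.8 to 2.2 TPM in the other WT cells. Ptgir reached 1.3 TPM and Gsta2 0.6 TPM in the same cell, against at most 0.3 and 0.1 TPM in the others. Cd48 had 0.8 TPM in WT 1 and was listed at 0 in the other WT cells. Each of these 4 values lay far below every KO cell. Btg2, in contrast, was high at 381.0 TPM in WT B1-1, against 35.7 to 59.2 TPM in the other WT cells. Without WT B1-1 the lowest WT value of Btg2 still exceeded the highest KO value of 32.7 TPM.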

How the results depend on the processing

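No paired analysis was possible because each result is a difference between cells with no test, and the labels pair no KO cell with a WT cell. Values within each title set are given instead. With the outlier libraries included, 603 genes were past the fold higher and 1405 lower, so the direction of the excess turned, and 6 and 1 were separated. With the Pf4-poor KO cells added, 186 were separated higher and 71 lower. A pseudocount of 10 gave 661 and 335 genes past the fold and 493 separated higher, no filter gave 1087 past the fold lower, and a filter of 20 TPM gave 725 and 401 past the fold and 484 separated higher. Median-ratio rescaling gave 448 separated lower. Separated genes numbered 1603 higher and 901 lower in B1 alone, where single cells cannot overlap, 1174 and 695 without a prefix, and 450 lower after averaging. Leaving out each cell gave 1179 to 1599 genes past the fold higher, 497 to 930 lower, 756 to 1139 separated higher and 238 to 543 separated lower. The highest counts came without WT B1-1, KO 1A or KO B1-3. Fewer cells leave less room for overlap. Leaving out any other WT cell gave 756 to 814 separated higher, against 1130 without WT B1-1. Why these counts differed was not tested.

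Of 4523 values for 191 genes, 4032 moved by less than 1 SD between cells, 473 moved further and 18 went to the other sign. In the full table Rap1b (-0.58), Pde5a (-0.18), Idi1 (-0.63), Cyp51 (-0.56), Ywhaz (-0.11), Rpl27 (0.23) and Rps7 (0.43) changed sign. With the Pf4-poor KO cells added, Itgb3 (-0.95), Gp1bb (-1.30), Clu (-0.075), Cxcl5 (-0.13), Tbxa2r (-0.0106), Gnaq (-0.13), Rap1b (-0.031), Tubb2a (-0.026), Tpm4 (-0.74), Slc35d3 (-0.82), Gadd45g (-0.17) and the lymphoid median (0.49) changed sign, as did the nucleolar median in B1 (0.35). Other causes were not tested.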
